A study of Mus musculus with 4 samples.

Results

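Peaks of trimethylated lysine 36 of histone H3 (H3K36me3) that the authors' annotation placed between genes are described here in neural progenitor cells of the embryonic day 13 mouse forebrain. They were taken as every peak on chromosomes 1 to 19 whose annotation class was Intergenic, which gave 806 of 36664 autosomal peaks in the wild-type (WT) library and 2765 of 94527 in the library of the H2A.z1 deletion (cKO). All other classes (promoter-TSS, exon, intron and TTS, the class at transcript ends) are called genic. The study profiled C57BL/6 embryos by chromatin immunoprecipitation and sequencing (ChIP-seq), WT against a genotype labelled H2A.z1cKO that the series describes as brain-specific, in a study of cortical neurogenesis. The driver of the deletion, and how many embryos went into a library, are not given in the sources used here. There were 4 libraries, 1 ChIP and 1 input per genotype, so no difference between genotypes below has a replicate check, and none was tested. Intervals in brackets are exact Clopper-Pearson intervals at 95%, and they cover counting error only; neighbouring peaks are not independent of each other.

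H3K36me3 is written by SETD2, which travels with elongating RNA polymerase II, so the mark is known to build up over the bodies of transcribed genes and toward their 3′ ends. Polymerase runs on past the poly(A) site before it is released, and primary transcripts of some microRNAs and long noncoding RNAs (lncRNAs) lie between annotated protein-coding genes. H2A.z1 is a variant of histone H2A found in nucleosomes near promoters and enhancers.

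The ChIP libraries were of similar depth, with 31984670 (WT) and 32927164 (cKO) tags against 38500353 and 35026817 input tags. Genic peaks overlapped the bodies of 9 of 10 radial glia and forebrain progenitor markers in each library, Fabp7 being the exception in both. Over all 20560 RefSeq protein-coding genes, 32.9% were marked in this way in WT and 45.2% in cKO. Of 17 marker genes of red cells, endothelium, microglia and mesenchyme, none was marked in WT and 3 were in cKO (Alas2, Csf1r and Pdgfra). Of 6 neuronal markers, 2 were marked in WT, about the share over all genes, and 1 in cKO, below that share. H2az1, the deleted gene, was overlapped by 1 peak in WT and 2 in cKO, the second of these named Dnajb14 and running past the end of the span, and since the deleted stretch is not given this does not check the labels.

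Some intergenic peaks lay on or beside sequences that the RefSeq tables hold, and examples are shown here. Of 31396 autosomal promoter windows (from 250 bases before to 50 after a RefSeq gene's start, 25748 genes), 6 windows of 5 genes were touched by WT intergenic peaks and 13 windows of 13 genes by cKO intergenic peaks. In cKO 5 windows lay wholly inside an intergenic peak, those of Gm40522, Gm42226, Gm51469, LOC115488002 and Lncppara. Of these, 3 are printed below 5′ to 3′ (GRCm38.p6, the assembly behind mm10, from RefSeq) with every CpG in capitals. They are the 2 that belong to loci described further on, Lncppara (chr15:85703523-85703822, plus strand) and Gm42226 (chr5:23705609-23705908, minus strand), and Gm40522 (chr9:62380515-62380814, plus strand), whose window no WT intergenic peak touched.
Lncppara: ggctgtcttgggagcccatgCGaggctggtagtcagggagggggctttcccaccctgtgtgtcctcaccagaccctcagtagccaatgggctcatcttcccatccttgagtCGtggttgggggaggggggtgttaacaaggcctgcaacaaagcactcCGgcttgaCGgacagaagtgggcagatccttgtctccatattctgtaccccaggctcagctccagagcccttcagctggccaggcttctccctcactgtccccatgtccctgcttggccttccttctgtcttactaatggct
Gm42226: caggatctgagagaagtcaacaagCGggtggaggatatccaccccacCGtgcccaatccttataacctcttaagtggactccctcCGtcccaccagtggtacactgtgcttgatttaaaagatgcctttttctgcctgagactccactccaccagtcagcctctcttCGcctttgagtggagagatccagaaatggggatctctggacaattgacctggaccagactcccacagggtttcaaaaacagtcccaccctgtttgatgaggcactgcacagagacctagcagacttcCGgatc
Gm40522: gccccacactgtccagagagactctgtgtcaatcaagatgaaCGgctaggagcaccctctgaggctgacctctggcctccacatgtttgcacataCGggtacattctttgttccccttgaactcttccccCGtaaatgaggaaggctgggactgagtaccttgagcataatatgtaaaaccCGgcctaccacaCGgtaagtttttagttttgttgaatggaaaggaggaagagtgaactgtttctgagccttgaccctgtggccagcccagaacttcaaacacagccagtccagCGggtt
The windows hold 4, 5 and 6 CpGs, against a median of 7 over all promoter windows, and 69.1%, 62.4% and 56.8% of all windows have as many or more. Their GC contents are 58.7%, 52% and 50.7%, beside a median of 53%. Other windows were richer: the 1 window wholly inside a WT intergenic peak, that of Gm40237, holds 10 CpGs at 62.7% GC, and the windows touched in cKO hold 1 to 13.

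Lncppara is the lncRNA gene that RefSeq places over the hairpins of 2 let-7 microRNAs (Mirlet7c-2 at chr15:85706603-85706697 and Mirlet7b at chr15:85707319-85707403), and intergenic peaks lay along the stretch before them. Let-7 microRNAs are known to build up as progenitors differentiate. The 5′ arms of the pair, printed as RNA with the seed (bases 2 to 8) in capitals, share the seed GAGGUAG.
let-7c-5p: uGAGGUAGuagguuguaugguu
let-7b-5p: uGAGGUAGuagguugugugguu
The let-7c-2 hairpin lay 2986 bp from the nearest WT intergenic peak and 948 bp from the nearest cKO one. Among all 919 autosomal hairpins in the table, 4 (0.435%) had a WT intergenic peak within 3 kb and 27 (2.94%) a cKO one.

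Intergenic peaks were a small share of each list. They were 2.2% of autosomal peaks in WT (2.05 to 2.35%) and 2.93% in cKO (2.82 to 3.03%). The cKO list held 3.43 times as many intergenic peaks as the WT list, and 2.56 times as many genic peaks. In covered length the intergenic ratio was 5.49 (263 kb and 1445 kb) and the genic ratio 5.15. The higher cKO share depended on list length: when the cKO list was reduced to its 36664 strongest peaks, 714 were intergenic (1.95%) and the difference of 0.73 percentage points turned to -0.25.

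Intergenic peaks were shorter at the median than genic ones. They had a median width of 244.5 bp (WT) and 352 bp (cKO), against 271 and 441 bp for genic peaks. Peaks over 2 kb were 3 of 806 (0.372%) in WT and 77 of 2765 (2.78%) in cKO, beside 0.477% and 6.14% of genic peaks. The median fold enrichment over the local input was 4.86 in WT and 4.70 in cKO, set by each library's own input, and the median −log10 q was 6.33 and 8.67 against 7.06 and 10.4 in genic peaks. Intron peaks were the class most like them: in WT their median −log10 q was also 6.33, their median width 261 bp, and 0.307% were over 2 kb. The median WT pileup was 18 tags in intergenic and genic peaks alike.

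The share of intergenic peaks varied between chromosomes. Chromosome 12 had the highest share in both libraries, 5.39% in WT (4.28 to 6.68%) and 4.79% in cKO (4.17 to 5.48%). Chromosome 2 had the lowest, 0.905% (0.598 to 1.31%) and 1.76% (1.48 to 2.06%). Chromosome 12 carries the Srp54b and Srp54c loci and the Dlk1 to Mirg region described below. The sex chromosomes, outside the rule, added 1 intergenic peak on X and 7 on Y in WT, and 31 and 34 in cKO.

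Within its own library the median intergenic peak lay nearer to a genic peak in cKO than in WT. The edge-to-edge distance to the nearest genic peak of the same library had a median of 6.83 kb in WT (quartiles 1.86 and 59.7 kb) and 2096 bp in cKO (0.661 and 8.25 kb). Within 10 kb lay 450 WT peaks (55.8%, 52.3 to 59.3%) and 76.6% of cKO peaks (75 to 78.2%). Genic peaks were much closer to each other, with medians of 0.705 kb and 0.333 kb. At the other end 27.5% of WT and 12.4% of cKO intergenic peaks were more than 50 kb away, and 25 and 20 peaks were more than 1 Mb away.

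**Figure D1:**
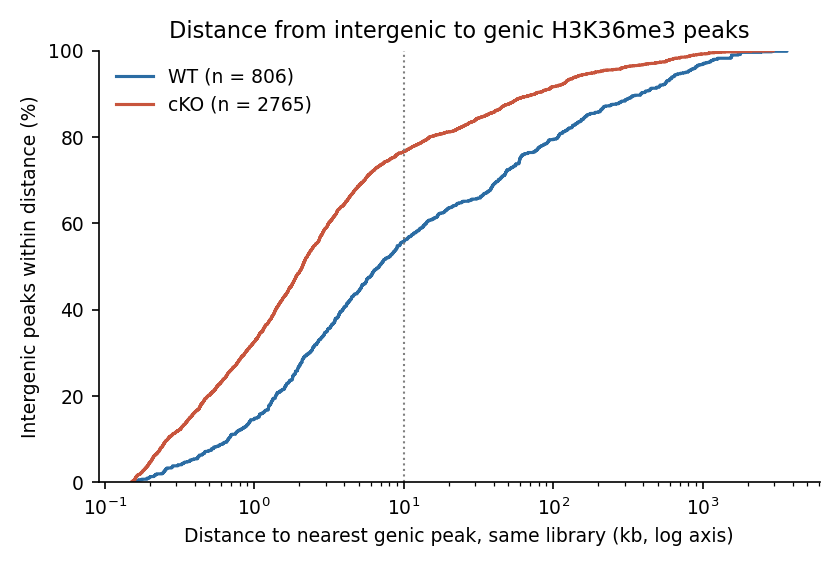
Cumulative share of intergenic peaks (vertical axis, percent) within a given distance of the nearest genic peak of the same library (horizontal axis, kb, log scale), for 806 WT and 2765 cKO peaks; the dotted line marks 10 kb. The cKO curve lies to the left, with 76.6% of peaks within 10 kb against 55.8% in WT.

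The genic lists differed in length, with 91762 peaks to be near to in cKO and 35858 in WT. How far this sets the distance was not tested. Measured to the genic peaks of the other library, the median was 3.85 kb for WT intergenic peaks and 4.87 kb for cKO ones, so the order of the libraries turned. The shares within 10 kb were then 62.3% and 64.7%. With the cKO list reduced to the number of WT peaks, the cKO median was 2404 bp, with 71.7% within 10 kb. Reducing it to the covered length of the WT list left 69 cKO intergenic peaks. Their median was 13600 bp, with 47.8% within 10 kb.

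The share of WT intergenic peaks found again in cKO was below that of each other WT class. A cKO peak of any class overlapped 625 of 806 WT intergenic peaks by at least 1 bp (77.5%, 74.5 to 80.4%), beside 96.1% of all autosomal WT peaks and 96.5% of genic ones. In the other direction 481 of 2765 cKO intergenic peaks were overlapped by a WT peak (17.4%, 16 to 18.9%), beside 25.5% of all cKO peaks. Of the WT peaks with a partner, 85.6% met a cKO intergenic peak and 11.2% a cKO TTS peak. Some cKO peaks met more than 1 WT peak. Each taken with the cKO intergenic peak it overlapped most, 535 WT intergenic peaks met 450 cKO ones. Of these 450, 50 met 2 or more WT peaks, and up to 6. With a reciprocal overlap of 50% required, the shares were 20.7% and 6.11%. With the cKO list cut to its strongest peaks, the WT share was 54.5% at equal numbers of peaks and 15.3% at equal covered length.

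Distance from genic signal went with how often a WT intergenic peak had a partner. Of WT intergenic peaks within 1 kb of a WT genic peak 96.6% (91.5 to 99.1%) had a cKO partner, which is the level of all WT peaks. The share was 92.6% at 1 to 3 kb, 86.5% at 3 to 10 kb and 70.1% at 10 to 50 kb, and 54.1% (47.3 to 60.7%) beyond 50 kb. In cKO no such order was seen: the shares were 21.3%, 12.5%, 12.8%, 21.4% and 20.5% over the same bins.

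**Figure D2:**
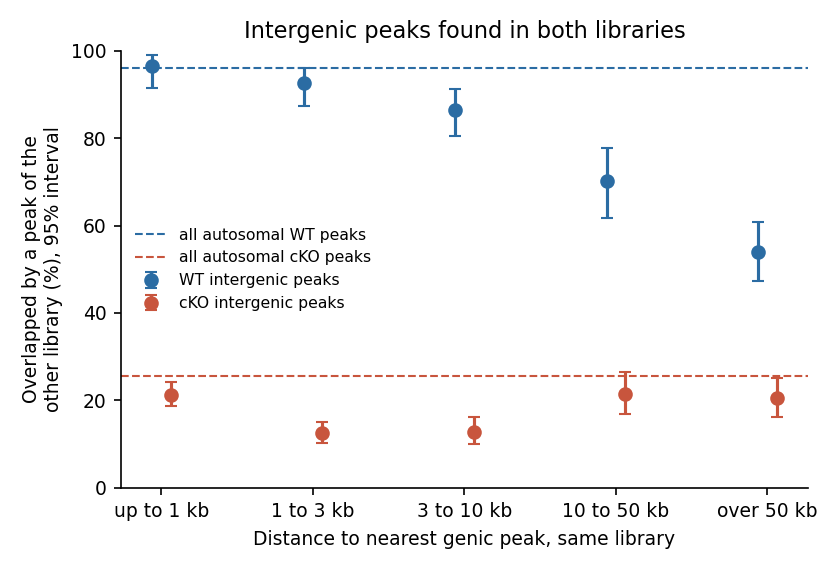
Share of intergenic peaks overlapped by a peak of the other library (vertical axis, percent, with 95% Clopper-Pearson intervals) by distance to the nearest genic peak of the same library; dashed lines are the shares over all autosomal peaks (96.1% for WT and 25.5% for cKO). The WT share goes down from 96.6% to 54.1% with distance, and the cKO shares lie between 12.5% and 21.4%.

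The class Intergenic is the annotation's and not RefSeq's. Of the intergenic peaks 344 in WT (42.7%, 39.2 to 46.2%) and 955 in cKO (34.5%, 32.8 to 36.3%) overlapped a RefSeq gene of some kind. Protein-coding spans held 27.2% and 20.9%, pseudogenes 11.8% and 8.93%, and lncRNA genes 5.71% and 5.86%. The protein-coding spans belonged to 112 genes in WT and 291 in cKO, 93 of them shared. Leaving out the peaks within any RefSeq gene, 462 WT and 1810 cKO peaks remained, 1.26% and 1.91% of the lists.

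Peaks outside every RefSeq gene that could be placed beside a gene lay mostly past its 3′ end. The nearest RefSeq gene was protein-coding for 342 WT and 1570 cKO peaks, and its strand was known from the promoter table for 260 and 1273. Of these, 240 in WT (92.3%, 88.4 to 95.2%) and 1216 in cKO (95.5%, 94.2 to 96.6%) were past the 3′ end rather than before the 5′ end. That is 240 of the 462 WT and 1216 of the 1810 cKO peaks outside RefSeq genes, the side of the others being not assessed or 5′. Positions on a 1 kb grid over the sequence between RefSeq genes, treated the same way, fell past a 3′ end in 49.9% of 296113 cases. The gap past the 3′ end had a median of 1458.5 bp (WT) and 1556.5 bp (cKO), and 92.5% and 92.4% of the gaps were within 5 kb.

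**Figure D3:**
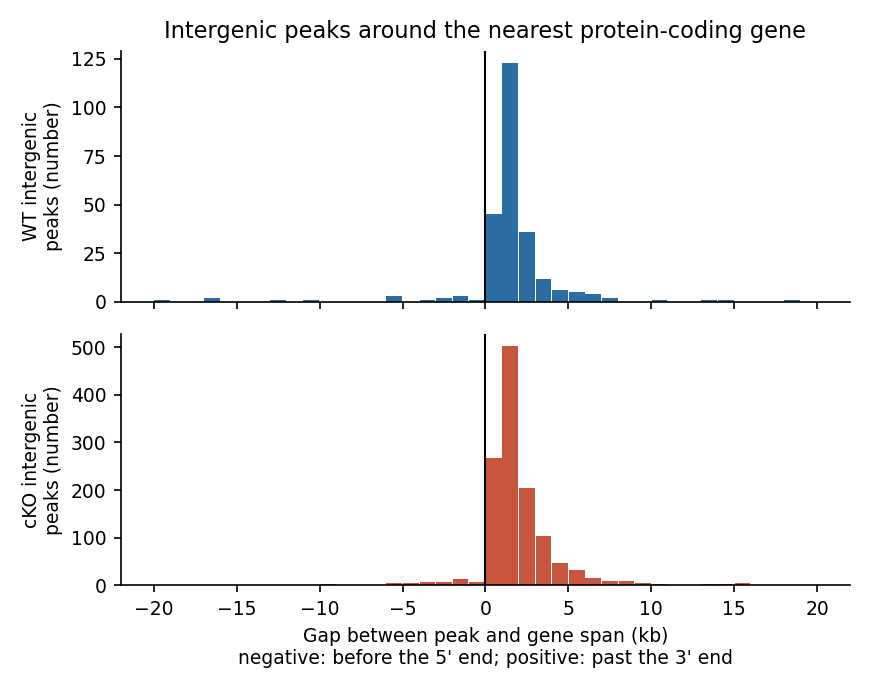
Number of intergenic peaks outside RefSeq genes (vertical axes, WT above and cKO below) by the gap to the nearest protein-coding gene in 1 kb bins (horizontal axis, kb; negative before the 5′ end, positive past the 3′ end), gaps up to 20 kb drawn. In both libraries the highest bar is 1 to 2 kb past the 3′ end, with 123 of 260 WT and 502 of 1273 cKO peaks.

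Most of these peaks followed a gene that was itself marked. A genic peak of the same library lay over the gene for 86.3% of the 240 WT peaks and 95.1% of the 1216 cKO peaks. Over all 20560 RefSeq protein-coding genes, with or without a known strand, the shares of genes were 32.9% and 45.2%. The first shares count peaks, so a gene followed by several peaks enters several times. The few peaks on the 5′ side differed in this: 4 of 20 in WT and 36 of 57 in cKO had a marked gene. The median gap on that side was 8217.5 bp (WT) and 3106 bp (cKO).

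The genes followed by most peaks past the 3′ end were, in this order, Nmd3, Scaf8, Polr3k and Nop58, all in cKO. Past Nmd3, an adapter for export of the large ribosomal subunit, cKO had 9 intergenic peaks, the nearest 1.81 kb and the farthest 15.9 kb beyond the end, with pileups of 16 to 26 tags, and WT had none. Past Scaf8, which binds the polymerase II tail, cKO had 8 peaks reaching 17.4 kb beyond the end, and WT 1 of 318 bp that overlapped a cKO peak in position. Past Polr3k, a subunit of RNA polymerase III, cKO had 6 peaks covering 2922 bp, from 4274 to 10852 bp beyond the end. Past Nop58, a core protein of box C/D small nucleolar RNPs, cKO had 6 peaks covering 2521 bp, up to 6.33 kb beyond the end, and WT none. The bodies of Nmd3 and Nop58 were marked in both libraries: genic peaks over Nmd3 numbered 3 in WT and 17 in cKO, and over Nop58 5 and 22.

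Srsf3, a splicing factor gene on chromosome 17, shows how the class turns on peak length. WT had 5 intergenic peaks past the gene (chr17:29044135-29047822), of 814, 268, 152, 264 and 231 bp, with pileups of 32, 18, 14, 18 and 19 tags. In cKO the same stretch was mostly inside 1 TTS peak of 4913 bp (chr17:29041647-29046559, pileup 53), and only 1 intergenic peak of 356 bp was left. The cKO count is lower although cKO peaks covered most of the stretch.

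Cdkn1a, which codes for the cell cycle inhibitor p21, lies further along the same chromosome and showed another pattern. WT had 6 intergenic peaks from 2.23 to 7.95 kb past its end (chr17:29102952-29108675), with widths of 460, 201, 871, 167, 185 and 233 bp, pileups of 20, 31, 22, 14, 25 and 18 tags and folds of 3.16 to 5.83. Cdkn1a was the nearest RefSeq gene for 4 of these peaks, the farthest 5282 bp past its end. The annotation named the others, farther along, Gm16194. Neither library had a peak over the Cdkn1a body, and cKO had no peak within 10 kb of the gene. The nearest cKO peak was 55.1 kb from the run. It was the WT domain with most peaks that no cKO peak touched, and it was named after its values were seen.

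**Figure D4:**
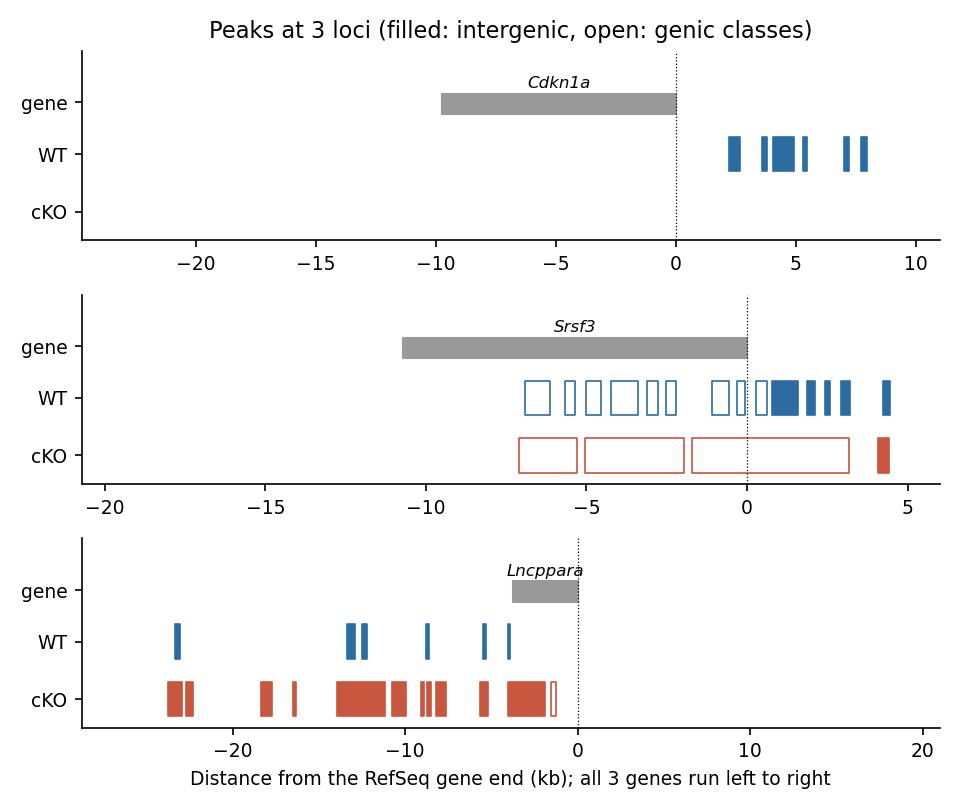
Peaks of both libraries at Cdkn1a, Srsf3 and Lncppara against the distance from the RefSeq gene end (horizontal axes, kb), filled boxes for intergenic and open boxes for genic classes, with the gene span in grey. WT has 6 intergenic peaks past Cdkn1a where cKO has none, 5 past Srsf3 where cKO has 1, and 6 around Lncppara where cKO has 11.

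At the let-7 locus both libraries were marked. Within 20 kb of Lncppara WT had 6 intergenic peaks covering 1580 bp, with pileups of 15 to 20 tags, and cKO had 11 covering 9222 bp, with pileups of 17 to 34. The longest cKO peaks were 2776 bp (chr15:85693565-85696340) and 2182 bp (chr15:85703473-85705654), and the second of these contains the whole promoter window printed above. WT had a peak of 159 bp at the edge of that window and no genic peak in the locus, and cKO had 1 promoter-TSS peak of 323 bp next to the let-7c-2 hairpin.

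Lists of imprinted and lncRNA genes were also looked up. In the imprinted region from Dlk1 to Mirg on chromosome 12 (chr12:109452485-109749458), which holds a large microRNA cluster, WT had 2 intergenic peaks covering 391 bp and cKO 11 covering 3869 bp, beside 7 and 48 genic peaks. Of the 20 imprinted genes listed, Gnas, which codes for a stimulatory G protein subunit, was named by 3 cKO peaks and no WT peak; 1 of 20 is 5%, beside 5.33% of all protein-coding symbols in cKO. None of the 20 lncRNA genes listed was named in either library.

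Few genes of any kind were named, and lists of progenitor and neuronal genes are read against that. The annotation named 355 of 20560 RefSeq protein-coding symbols in WT (1.73%) and 1096 in cKO (5.33%). Of 20 radial glia and forebrain progenitor genes none was named in WT and 1 in cKO, Tcf7l1, a transcription factor of the Wnt pathway. Of 20 genes of intermediate progenitors and neurons only Sox11, a transcription factor of newborn neurons, was named, by 1 WT and 5 cKO peaks. Those peaks all lay within the RefSeq span of Sox11 (chr12:27334268-27342718). The WT peak, of 220 bp and 14 tags, overlapped the strongest of the cKO peaks, of 280 bp and 34 tags.

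Of 20 ubiquitously transcribed genes 4 were named in cKO (20%), and 2 of these in WT as well. Over all protein-coding symbols 5.33% were named in cKO and 1.73% in WT. Ppia, the cyclophilin A gene, was named by 3 WT peaks covering 1004 bp and 4 cKO peaks covering 2412 bp. Actb, the cytoplasmic beta-actin gene, was named by 2 peaks in each library, of 312 and 399 bp in WT and 763 and 415 bp in cKO, on the side of its TTS peaks. By position, within 5 kb of Actb, WT had 2 intergenic peaks covering 711 bp and cKO 4 covering 2079 bp, the further cKO ones being named Fbxl18. Eef1a1 and Ywhaz were named by 1 cKO peak each and by no WT peak. Beside Tubb2b, a tubulin gene active in young neurons that is in neither list, WT had 5 intergenic peaks covering 969 bp and cKO 4 covering 3522 bp, again on the side of its TTS peaks.

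Joined within 3 kb, the intergenic peaks formed 595 domains in WT and 1721 in cKO. Single peaks made up 81.2% of WT and 65.8% of cKO domains, and 12 and 50 domains had 5 or more peaks. When both libraries were joined together, 413 of 1888 regions held intergenic peaks of both, 169 of WT only and 1306 of cKO only.

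Several of the domains with most covered bases lay within RefSeq genes. The largest in each library, named Slc29a4 by the annotation, lay wholly within Tnrc18 on chromosome 5: 14 WT peaks covered 10844 bp and 9 cKO peaks 22607 bp, the longest cKO peak being 9392 bp. All 14 WT peaks had a cKO partner. Srcap, the ATPase of a complex that exchanges H2A.Z into nucleosomes, held 10 WT intergenic peaks (6610 bp) and 14 cKO ones (14096 bp) beside 14 and 18 genic peaks. Nup98, a nuclear pore gene, held 10 peaks of 3682 bp in WT, and the cKO domain there had 7 peaks of 12160 bp. On chromosome 5 the domain at Gm42226 and the lncRNA gene AI506816 had 8 WT peaks (3408 bp) and 4 cKO peaks (10894 bp), of which 1 was 6528 bp long. In each of these but Srcap the WT domain had more peaks and fewer bases than the cKO domain.

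The 5 largest domains of each list were completed in WT by the strongest peaks of the list, on chromosome 10, and by 11 peaks at Gm2446 and Fam177a2 beside Srp54c on chromosome 12 (4277 bp). The latter was 9387 bp in cKO. In cKO they were completed by a domain of 10 peaks and 9759 bp at the end of Rufy3, a neuronal adaptor gene, and beyond it. Over the Rufy3 span itself cKO had 4 of these peaks, covering 7256 bp, and WT had 8 peaks and 2479 bp.

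By the annotation's own names, zinc finger genes were several of the genes with most intergenic peaks. After Slc29a4 with 14, WT peaks most often named Chrna10 (10), then 1700047I17Rik2, Grsf1 and Zfp781 (9 each). In cKO the order was Zfp868 (17), Zfp825 (15), Zfp873 (13), Srcap (12) and Mirlet7c-2 (11, as many as Zfp781 and Tmem181c-ps). For Zfp868 the WT count was 3 and for Zfp825 it was 1. Genes with a Zfp symbol were named by 5.46% of WT (3.99 to 7.26%) and 5.97% of cKO intergenic peaks (5.11 to 6.92%), beside 2.09% and 1.82% of genic peaks. Clusters of such genes are known to carry H3K36me3 together with H3K9me3 over their zinc finger exons.

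**Figure D5:**
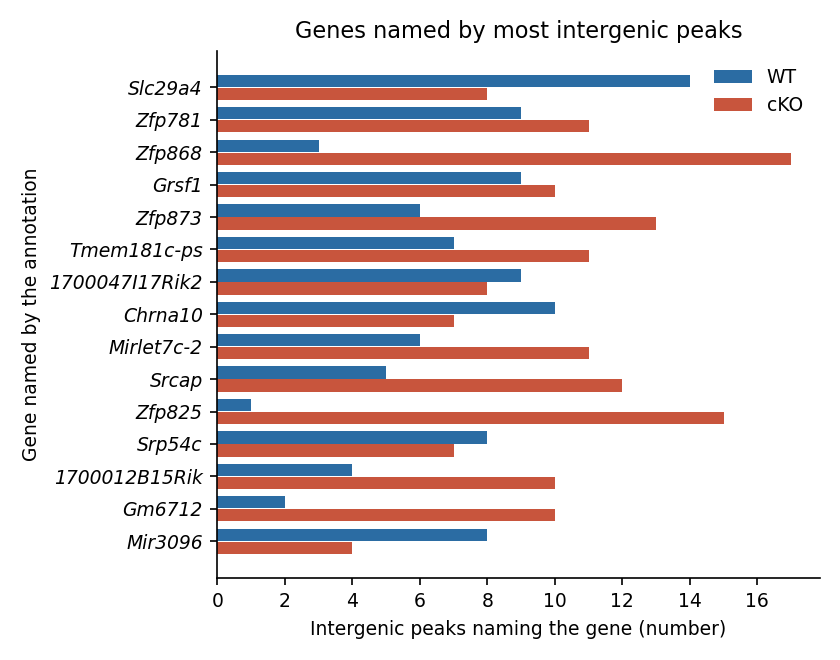
Number of intergenic peaks naming a gene (horizontal axis) in WT and cKO for the 15 genes with most in both libraries together. Slc29a4 has more WT peaks (14) than cKO peaks (8), and Zfp868 and Zfp825 have 17 and 15 in cKO against 3 and 1 in WT.

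Other gene families also made up a larger share of the names of intergenic than of genic peaks. Predicted genes (Gm and Rik symbols) were named by 28.8% of WT and 24.6% of cKO intergenic peaks, beside 13.8% and 15.4% of genic peaks. Olfactory and vomeronasal receptor genes were named by 7 WT (0.868%) and 13 cKO (0.470%) intergenic peaks, beside 0.0335% and 0.0229% of genic peaks. MicroRNA genes were named by 18 WT (2.23%) and 45 cKO (1.63%) intergenic peaks, and by 1.01% and 1.02% of genic peaks.

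Of the 5 strongest WT intergenic peaks 4 had no counterpart in cKO. The top 2 lay near the start of the assembled part of chromosome 10, named 9230019H11Rik: 6099 bp at chr10:3111152-3117250 (pileup 185, fold 51.7, −log10 q 257) and 1173 bp at chr10:3109335-3110507 (pileup 160, fold 44.7, −log10 q 214). The nearest WT genic peak was 1251 kb away and the nearest cKO peak 755 kb away. A peak of 305 bp on chromosome 6 was named Chl1, a neural cell adhesion gene, but lay 195769 bp from the nearest protein-coding span. It had a pileup of 109 and a fold of 14.4, and the nearest cKO peak was 2163 kb away. The peak named Tmem125 on chromosome 4, over the lncRNA gene Gm40237, had a pileup of 236 and a fold of only 3.31, on a local background 27.2 times that of the genome. The next strongest WT peak without a partner, of 282 bp and named Gm26585, had a pileup of 45 and a fold of 12.3. The fifth strongest WT peak, in Trak1, a gene for mitochondrial transport, had a pileup of 53 in WT and overlapped a cKO intergenic peak.

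The strongest cKO intergenic peaks all had WT partners, and 4 of 5 stood within 3.56 kb of a genic peak. The strongest, of 3444 bp near Bloc1s5 (chr13:38642113-38645556), had a pileup of 88, a fold of 13.6 and a −log10 q of 66.8, and lay 0.512 kb from a genic peak. Its WT partner was 1423 bp long with a fold of 10.2. The others were named Tmem67 (within Rbm12b2), Snora30 (within Srcap), Fam92a and Zfp781, with −log10 q of 52.5, 51.5, 48.7 and 47. The strongest cKO peaks without a WT partner were 2 named Zfp868, within the pseudogene Gm3365, with −log10 q of 44 and 32.8, and 1 each named Glrx3 (35.2), Gm21811 (29.8) and Gm21769 (29.8). The local background there ranged from 1.44 times that of the genome at Glrx3 to 5.19 times at Gm21811. Over Gm3365 and 5 kb on either side cKO had 15 intergenic peaks and WT 2.

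A few peaks were isolated in both libraries at the same place. Among peaks with a −log10 q of at least 5, the farthest from any genic peak was named Gm24681 on chromosome 16 in each library, 3655 kb away in WT and 2967 kb in cKO, and the peaks overlapped. The next was named Sis on chromosome 3, 2893 kb and 2522 kb away, with pileups of 27 and 53, and these overlapped too. The folds at Sis were 6.95 in WT and 5.19 in cKO, and at Gm24681 4.35 and 3.35. The local background in cKO was 2.89 times that of the genome at Sis and 3.17 times at Gm24681. In WT it was 1.17 and 1.12 times. The remaining far peaks of WT were the Chl1 peak and 2 named Gm25041, which had cKO partners. Those of cKO, named Gm24246, Pcdh17 and Unc5d, lay in pseudogenes and had none.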

How the data were processed

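H3K36me3 ChIP-seq and input libraries of E13 forebrain progenitors were aligned to mm10 with Bowtie2 2.2.9, per the submitters' processing notes. Peaks were called with MACS 2.1.1.20160309, per the file headers (2.1.0 per the processing notes), as narrow peaks at a p cutoff of 1.00e-05, each ChIP against input. By their names in the headers, the alignments used had been deduplicated and kept unique hits. The deposited peak lists give the pileup signal at the summit, the fold enrichment over local input (a ratio) and −log10 values of p and q. Per the file headers no q-value was computed, yet the deposited −log10 q column is filled; it was used for ranking and filtering inside 1 list at a time. The cKO input has 2 numbers in its name; pooling of inputs and the annotation tool are not stated there.

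Annotated peaks were joined to the lists by position (annotation starts are 1 bp higher), and list positions are printed. Distances are edge to edge, a partner needs 1 bp of overlap with a peak of any class, and domains join peaks within 3 kb. RefSeq GRCm38.p6 spans gave gene context; 328 spans starting below 3 Mb, where mm10 autosomes have no sequence, were left out and 46714 were used. Strand was known only for genes in the promoter table (25748 autosomal genes). Local background was recovered as ((pileup + 1) / fold) less 1, over the genome background from fragment length and tags. Python 3.11.15, numpy 2.4.6, pandas 2.3.3 and scipy 1.17.1 were used, and interval functions were tested on simulated data. Pileup, fold and −log10 q depend on each library's tags and input. Narrow calling splits a broad mark into pieces.

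The members and gene lists were chosen with earlier results of these data known. The rule for named peaks and genes was, per library, the 5 strongest by −log10 q, the 5 domains with most covered bases, the 5 genes named by most intergenic peaks, the 5 farthest from a genic peak with a −log10 q of at least 5, the 5 strongest without a partner, and up to 4 members of each list. The loci of Cdkn1a, Srsf3, let-7, Tubb2b and Dlk1, the windows around loci, the genes followed by runs of peaks and the promoters printed were chosen after their values were seen. No genome sequence was used here, so the sequences of the peaks are not printed. A member of the list of ubiquitously transcribed genes is not reported here.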

Additional observations from a re-analysis of the deposited data

How the results depend on the processing

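Of 128 recomputed values, 72 were counted as the same, 53 as moved and 3 as reversed. Same meant within the main value's 95% interval, or within 1.5 times a count. A cKO-minus-WT difference was the same if its sign held, also where the share near a genic peak fell from 20.8 to 2.42 percentage points. Cutting the cKO list leaves the WT list whole, so WT values there, apart from partners, could not move and are among the 72. The cause of each change was not tested beyond what its construction shows (fewer peaks, another limit). With a −log10 q of at least 5, the share within the limit of a genic peak was 50.5% (WT), the median distance was 9520 bp (WT) and the median width was 261 bp (WT) and 367 bp (cKO). There the median fold was 5.28 (WT) and 4.93 (cKO) and the share with a partner was 13.8% (cKO). With a fold of at least 4, the share of intergenic peaks was 2.05% (WT) and 2.64% (cKO), the share with a partner was 70.3% (WT) and the median width was 389 bp (cKO). There the median fold was 5.17 (cKO). With as many cKO as WT peaks, the strongest kept, the share with a partner was 54.5% (WT) and 42.6% (cKO), the number of peaks was 714 (cKO) and the share of intergenic peaks was 1.95% (cKO). There the share within the limit of a genic peak was 71.7% (cKO), the median distance was 2404 bp (cKO) and the median width was 663.5 bp (cKO). There the median fold was 6.58 (cKO), the share past the 3′ end was 97% (cKO) and the number of domains was 562 (cKO). There the cKO-minus-WT difference in the share of intergenic peaks was -0.251 percentage points. With cKO peaks kept, strongest first, up to the length covered in WT, the share with a partner was 15.3% (WT) and 81.2% (cKO), the number of peaks was 69 (cKO) and the share of intergenic peaks was 1.31% (cKO). There the share within the limit of a genic peak was 47.8% (cKO), the median distance was 13600 bp (cKO) and the median width was 1409 bp (cKO). There the median fold was 9.86 (cKO), the number of domains was 63 (cKO) and the cKO-minus-WT difference in the share of intergenic peaks was -0.892 percentage points. There the cKO-minus-WT difference in the share near a genic peak was -8.01 percentage points. With a limit of 5 kb, the share within the limit of a genic peak was 44.3% (WT) and 68.6% (cKO). With a limit of 50 kb, the share within the limit of a genic peak was 72.5% (WT) and 87.6% (cKO). With intron and exon peaks alone as genic, the share within the limit of a genic peak was 47.5% (WT) and 68.6% (cKO) and the median distance was 11670.5 bp (WT) and 4398 bp (cKO). From summit to summit, the median distance was 3023 bp (cKO). With a reciprocal overlap of 50%, the share with a partner was 20.7% (WT) and 6.11% (cKO). With partners allowed within 3 kb, the share with a partner was 82.4% (WT) and 53.6% (cKO). With the genic peaks of the other library, the share within the limit of a genic peak was 62.3% (WT) and 64.7% (cKO) and the median distance was 3853 bp (WT) and 4865 bp (cKO). With nearest genes within 10 kb, the share past the 3′ end was 95.9% (WT). Outside all RefSeq genes, the number of peaks was 462 (WT) and 1810 (cKO) and the share of intergenic peaks was 1.26% (WT) and 1.91% (cKO). Under every setting run, at least 90.6% of peaks with a stranded nearest gene lay past its 3′ end. The settings for the 3′ side and for the other library's genic peaks were chosen after seeing the data.

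No paired analysis was possible because each genotype has 1 ChIP library. The number of peaks and their widths follow enrichment and calling as well as occupancy, and these cannot be told apart with 1 library per genotype. Partner shares of WT depend on the longer cKO list. The middle range of intergenic pileups was 16 to 22 tags in WT and 19 to 28 in cKO, so a peak listed in 1 library was not detected in the other at this depth rather than shown to be absent. The 3′ side was known only for genes with a strand in the table.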
